A study of Homo sapiens with 9 samples.

Results

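The unexposed HepG2 cells of this series were the 3 control libraries, 3 of the 9 libraries in all, and their transcriptome is described here across every annotated feature with no treatment comparison. HepG2 is a permanent line grown from a human liver tumour and is widely used as a stand-in for hepatocytes, the secretory and metabolic cells of the liver. All 3 controls received 0.1% DMSO, the solvent, for 72 h after 72 h of settling in the plate, with 10% serum in the medium and fewer than 25 passages. The other 6 libraries, not used here, came from cells given the flame retardant TBOEP at 2.5 or 125 µM in the same solvent. Each control was a separate seeding, treatment, RNA isolation and sequencing reaction of 1 cell line, per the labels' protocols, so the spread below is that between cultures of 1 line and not between donors. Every control carried the solvent, and no culture without DMSO was analysed here.

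Hepatocytes make most of the proteins of blood plasma, among them albumin, the clotting factors and the apolipoproteins that carry lipids, and they also store glycogen, make urea and bile acids, and modify drugs through cytochrome P450 enzymes and conjugating enzymes. A small set of transcription factors (HNF4, FOXA, C/EBP and the nuclear receptors) keeps these programs on. Liver tumour lines commonly keep part of this output while they re-express genes of the fetal liver, such as AFP (alpha-fetoprotein) and IGF2 (insulin-like growth factor 2), and use the isozymes of growing cells.

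Below are promoters of 4 secreted-protein genes, each with at least 100 RPKM in all 3 controls. The stretches run from 150 bases before the RefSeq start to the base before it, on GRCh38.p14. They were chosen because they held the letters GTTAAT, known from promoters of liver genes, so that its presence in them is not a finding. Capitals mark GTTAAT and the TATA box letters TATAAA on either strand.
ALB: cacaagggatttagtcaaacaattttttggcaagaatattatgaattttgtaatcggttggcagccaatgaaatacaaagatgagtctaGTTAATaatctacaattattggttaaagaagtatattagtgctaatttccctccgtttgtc
AFP: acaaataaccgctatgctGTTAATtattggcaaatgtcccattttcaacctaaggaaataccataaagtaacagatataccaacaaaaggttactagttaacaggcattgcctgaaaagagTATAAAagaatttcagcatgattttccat
SERPINA1: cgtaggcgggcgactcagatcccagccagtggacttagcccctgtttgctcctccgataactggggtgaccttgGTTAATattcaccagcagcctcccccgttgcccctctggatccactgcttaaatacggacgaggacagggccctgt
APOH: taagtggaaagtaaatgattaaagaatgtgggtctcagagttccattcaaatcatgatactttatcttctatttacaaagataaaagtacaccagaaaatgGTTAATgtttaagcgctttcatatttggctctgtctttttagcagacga
These windows are chr4:73404137-73404286 on the plus strand for ALB, chr4:73436071-73436220 on the plus strand for AFP, chr14:94388603-94388752 on the minus strand for SERPINA1 and chr17:66229416-66229565 on the minus strand for APOH. GTTAAT began 61 bases before the start in ALB, 132 in AFP, 76 in SERPINA1 and 49 in APOH, and the TATA letters began 29 bases before the AFP start. SERPINA1 has a second RefSeq promoter in the table, which held neither. Among all 35116 promoters of 300 bases in the table, counted on both strands, 6.88% held GTTAAT and 11.5% held TATAAA. A match of letters describes the sequence and does not show binding. Promoters were found for 71 of the 100 genes in the lists of secreted proteins below and for 78.6% of protein-coding genes, under the 80% that a comparison of promoter features between sets needs, and none was made.

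The libraries held 10058205, 4925686 and 4023991 reads in genes for controls 1, 2 and 3, so control 1 was the deepest. Exon reads per feature were scaled by the authors to RPKM, exon reads divided by exon length and by the mapped reads of the library, which allows genes of different length to be compared. RPKM summed to between 252908 and 264130 per library, so that 1 TPM, the unit scaled to the same total in every library, was worth 0.253 to 0.264 RPKM. For a transcript of 2 kb, 3 reads, the upper limit for a count of 0 at about 95% confidence, came to 0.146, 0.299 and 0.367 RPKM. These floors and the intervals below cover counting error only. As a check for a library deposited under 2 labels, the chi-square of read counts per degree of freedom was 11.5 for controls 1 and 2, 4.80 for 1 and 3, and 4.58 for 2 and 3. All 3 values lay above the 1 or so that a library sequenced again gives, and the same counts under 2 labels give less. Since the chi-square grows with depth, it does not rank the pairs. Total and unique exon reads were equal in every feature of all 3 libraries, so genes with near-identical copies or shared exons may be understated, down to 0.

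All 10 hepatocyte markers reached at least 1 RPKM in each control. These genes mark the hepatocyte lineage and not which liver line was grown, and the list was chosen with earlier values known. ALB, the main protein of plasma, was read at 11734, 8468 and 10159.9 RPKM. SERPINA1, the antitrypsin of plasma, was read at 2465, 2028 and 2552 RPKM. APOA1, the main protein of high-density lipoprotein, was read at 526, 449 and 492 RPKM, and the 3 libraries of each of these genes differed by less than 2-fold.

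An RPKM of at least 1 in all 3 controls was taken as expressed. By that rule 9263 of 36787 features with annotated exons (25.2%) and 8425 of 17942 protein-coding genes (47.0%) were expressed. Exon reads were 0 in all 3 libraries for 20302 features (55.2%) and for 5053 protein-coding genes (28.2%), and the remaining 7222 features lay between. Control 1 was the lowest library in 4439 of the 9263 expressed features, and control 2 was the highest in 4437. Genes given below as lowest in control 1 or highest in control 2 are to be read beside these counts. The top of the range was narrow: 2925 features reached 10 RPKM in all 3 controls, 223 reached 100 and 26 reached 1000. The 26 features with a mean of 1000 RPKM or more held 21.4, 18.6 and 21.0% of all exon reads, and the 2954 features with a mean of 10 to 100 RPKM held 38.8, 39.9 and 38.9%. The 6815 features under 1 RPKM that had any exon read held under 1% together. Of the 9263 expressed features, 2575 overlapped another feature with reads, and for these the share of reads that belongs to each cannot be told apart here. Of the genes named below, ACTA2, ARG1, ARG2, CTNNB1, FGD5-AS1, GAS5, GLUD1, HADHA, HOXD1, HSP90AA1, KRT18, KRT8, MAT2A, NFE2L2, NR1I3, OTC, PCK2, PKLR, POR, PRDX1, PYGB, SOX9, TBC1D22B, VIL1 and ZFAS1 overlap another feature with reads, besides those said to do so where their values are given.

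A few genes took much of the sequencing. The 10 leading features held 17.6, 14.8 and 17.1% of gene reads in controls 1, 2 and 3 (16.5% ± 1.47, SD, n = 3), and the 1000 leading features held 62.3% ± 1.06. ALB alone held 4.05%, 2.93% and 3.50%, with exact binomial 95% intervals of 4.04 to 4.06, 2.91 to 2.94 and 3.48 to 3.52%. The intervals did not touch, so the spread among cultures was wider than counting error. Among nuclear genes FN1, the matrix protein fibronectin, followed with 2.58%, 2.34% and 2.46% of reads, A2M, the plasma protease inhibitor alpha-2-macroglobulin, with 2.29%, 1.38% and 1.89%, and APOB, the core protein of low-density lipoprotein, with 1.58%, 1.45% and 1.49%. Control 2 had the lowest share of each of these 4 genes. The mitochondrial MT-CO1 held 1.60%, 1.68% and 1.77%, above APOB in each library. The 37 genes of the mitochondrial genome held 7.64, 7.58 and 8.64%, protein-coding nuclear genes 87.4% ± 0.514, and long noncoding genes 0.385% ± 0.0232. The protein-coding and long noncoding classes hold only features matched to the gene annotation by name. Of 57773 features, 24132 had no match, so both shares may be understated.

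All 13 protein genes of the mitochondrial genome exceeded 1000 RPKM on average. MT-CO2 and MT-CO1, subunits of cytochrome oxidase, were the first and second features by mean RPKM, with 11158, 11015 and 13595 RPKM for MT-CO2 and 10116, 10630.5 and 11152 RPKM for MT-CO1. Control 3 had the highest value of both. Among nuclear protein-coding genes, ALB came first, and FTL, the light chain of the iron store ferritin, second, with 4632, 5568 and 4674 RPKM. A2M was read at 3477, 2089 and 2872 RPKM, and AHSG, the mineral-binding plasma protein fetuin-A, at 1952, 2069 and 2125 RPKM. ALB, A2M and SERPINA1 were lowest in control 2, whereas FTL was highest there. Genes of every growing cell stood among the same 25: GAPDH of glycolysis (1183, 1167 and 1204 RPKM), the elongation factor EEF2 (1119, 1104 and 1154 RPKM) and the ribosomal protein RPS12 (767, 814 and 745 RPKM). Of the 25 genes, A2M, APOA2, C3, GAPDH, LYZ, PEBP1 and TPT1 overlap another feature with reads.

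**Figure D1:**
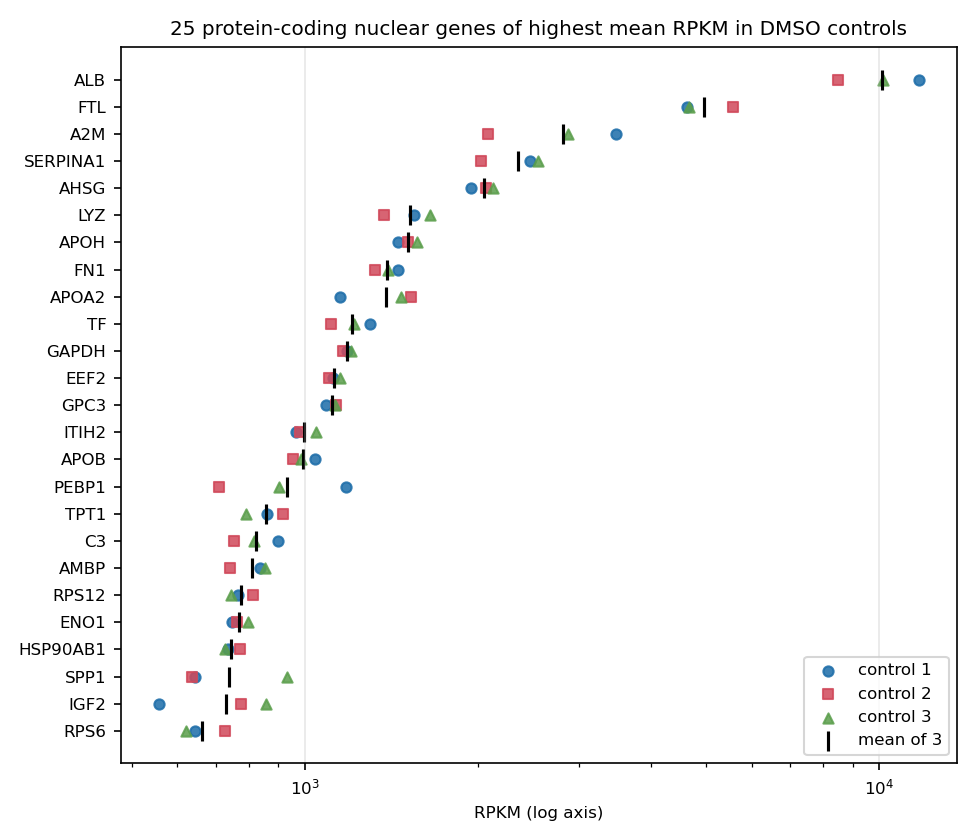
RPKM (log axis) of the 25 nuclear protein-coding genes of highest mean in the 3 DMSO controls, with a symbol for each library and a bar for the mean. ALB stood at 11734, 8468 and 10159.9 RPKM, and A2M and PEBP1 had the widest spread, with coefficients of variation of 24.7% and 25.5%.

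Of the 30 pathway lists the plasma carriers had the highest summed level of nuclear genes, at 21615, 17580.1 and 20303 RPKM. The 4 lists of plasma carriers, apolipoproteins, clotting factors and complement, 100 distinct genes, held 14.1, 11.5 and 13.1% of gene reads. Of the plasma carriers 20 of 27 were expressed, against 47.0% of all protein-coding genes, and 12 reached 100 RPKM in all 3 controls. Besides the genes above, TF, which carries iron, was read at 1299.9, 1112 and 1219 RPKM. Output of the albumin gene family on chromosome 4 was uneven: AFP stood at 696, 551 and 636 RPKM, while AFM (afamin) stood at 0.0440, 0.0900 and 0.331 RPKM and GC, the vitamin D carrier, at 2.01, 0 and 1.03 RPKM. These neighbours, and the other gene clusters given below, were picked with their values known. ALB (hg19 chr4:74262831-74287129) exceeded AFP (chr4:74296855-74321891) in every library, by 4.00 ± 0.07 on the log2(RPKM + 0.5) scale (mean ± SD, n = 3).

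Of the apolipoprotein list 19 of 22 were expressed. APOH, which binds phospholipid, was read at 1453, 1514 and 1572 RPKM, APOA2 of high-density lipoprotein at 1153, 1529 and 1471 RPKM and APOB at 1044, 955 and 986 RPKM. In the cluster on chromosome 11, APOA1 exceeded its neighbours: APOC3, which slows clearance of triglyceride-rich particles, stood at 36.5, 54.1 and 50.0 RPKM, APOA5 at 20.1, 20.9 and 21.3 RPKM and APOA4 at 1.86, 2.58 and 2.66 RPKM. The order APOA1, APOC3, APOA5, APOA4 held in each library. In the cluster on chromosome 19, APOE stood at 339, 302 and 366 RPKM and APOC1 at 69.0, 92.9 and 70.1 RPKM, while APOC2, the activator of lipoprotein lipase, stood at 1.34, 2.13 and 2.05 RPKM, a value that is uncertain because the annotation joins it to APOC4. APOC4 and LPA were listed at 0.

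Clotting factors and their inhibitors were expressed in 19 of 27 cases. F2 (prothrombin) stood at 226, 223 and 223 RPKM, a coefficient of variation of 0.745%, and SERPINF2, the plasmin inhibitor, stood at 186, 194 and 212 RPKM. The 3 fibrinogen chains, which assemble in equal numbers, were unequal as transcripts: FGG stood at 140.1, 242 and 205 RPKM, FGA at 114, 208 and 184 RPKM and FGB at 67.1, 78.6 and 92.4 RPKM. Each chain was lowest in control 1, and FGB was the lowest chain in every library. F9, the factor missing in haemophilia B, was listed at 0, against floors of 0.105, 0.215 and 0.264 RPKM.

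Complement was expressed in 15 of 24 cases, a share of 62.5%. C3, its central component, stood at 897, 754 and 817 RPKM and CFI, the protease that inactivates it, at 129.7, 129.5 and 137 RPKM. C5, which starts the lytic complex, was read at 50.2, 74.5 and 65.5 RPKM, lowest in control 1. C9 and FCN2 were listed at 0. Of the acute phase genes 6 of 11 (54.5%) were expressed, beside 47.0% of all protein-coding genes. FGL1, a secreted fibrinogen-like protein, led with 73.9, 77.6 and 81.0 RPKM, and HAMP, the iron hormone hepcidin, stood at 1.71, 5.24 and 5.81 RPKM, lowest in control 1. CRP and SAA1, the classic proteins of inflammation, were listed at 0, and SAA1 has a near-identical copy. The plot of list members shows these groups beside the rest.

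**Figure D2:**
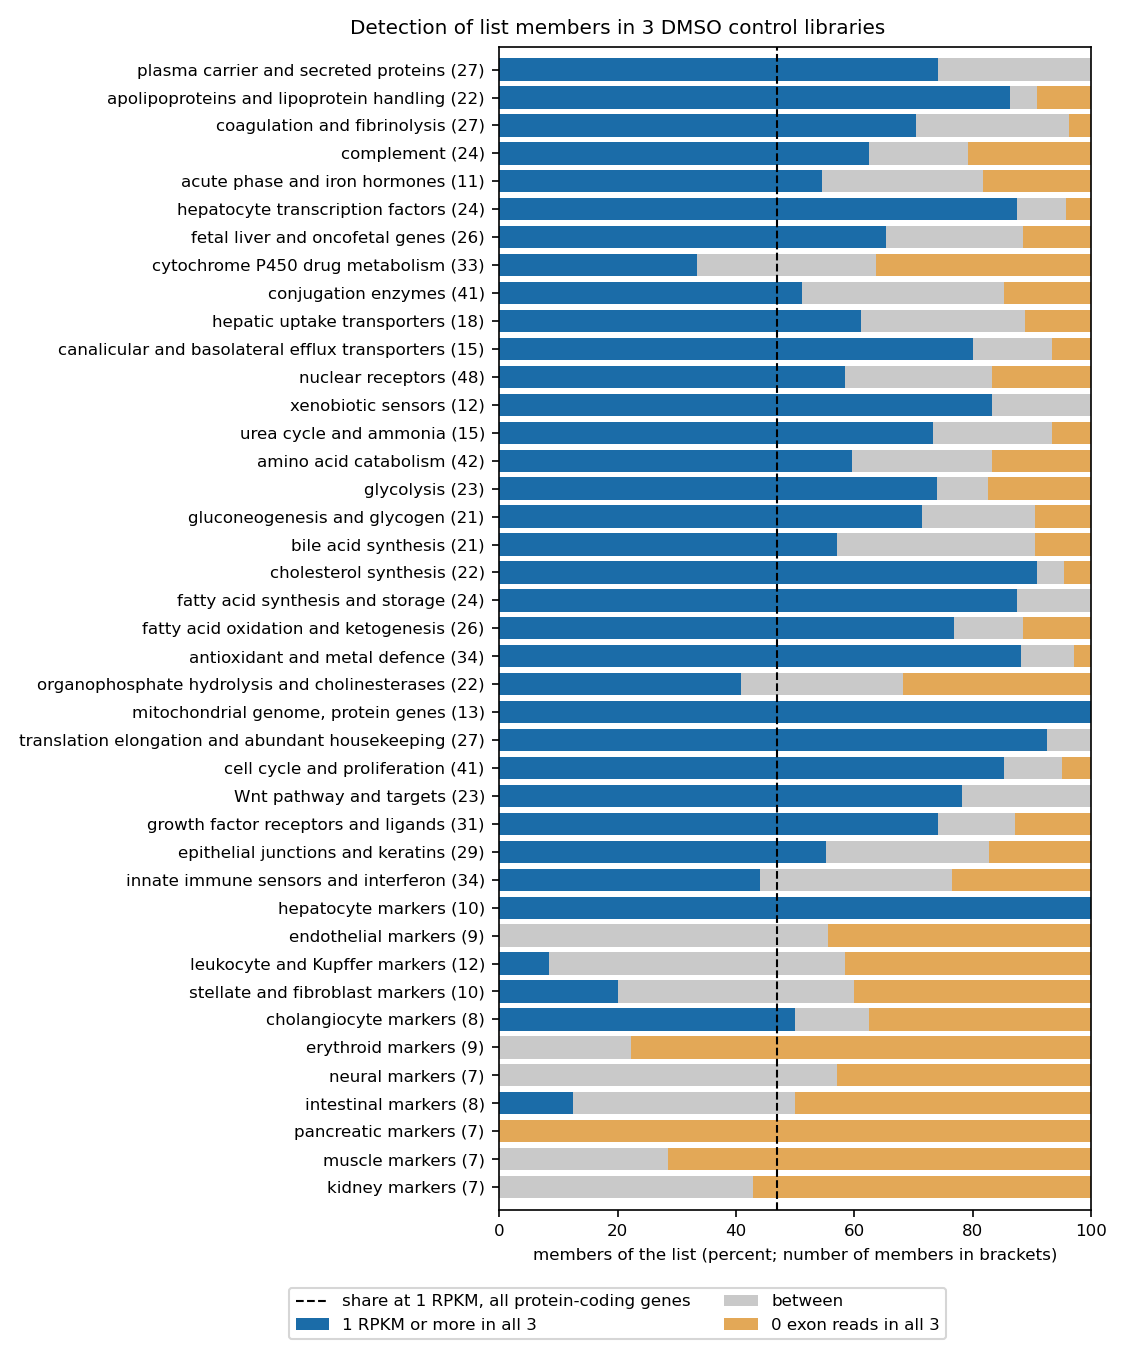
Share of each list's members (percent, number in brackets) with 1 RPKM or more in all 3 DMSO controls, with 0 exon reads in all 3, and between, and the share of all protein-coding genes that were expressed as a dashed line at 47.0%. All 10 hepatocyte markers were expressed, cytochrome P450 genes lay at 33.3%, and all 7 pancreatic markers had no exon reads.

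In all, 818 of 824 distinct list symbols were found in the files, and 512 of the 818 were expressed, 174 lay between and 132 had 0 exon reads. These counts, and every list count above and below, are to be read beside the shares of all protein-coding genes. Those shares were 47.0% expressed and 28.2% without exon reads. The median RPKM over all 17942 protein-coding genes was 0.829. Against it, the median over list members was 90.4 for plasma carriers, 40.1 for clotting factors, 19.7 for apolipoproteins and 3.95 for complement. It was 11.5 for the liver factors, 15.7 for cholesterol synthesis, 12.9 for glycolysis and 9.74 for the cell cycle. The lists with the lowest medians were innate immunity, at 0.223, and cytochrome P450 drug metabolism, at 0.0827, among the 30 pathway lists.

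The regulators of the hepatocyte program were expressed in 21 of 24 cases, none of them with a mean of 100 RPKM. HNF4A, the nuclear receptor that defines hepatocytes, stood at 38.5, 38.3 and 39.1 RPKM, the highest of the list. CEBPB stood at 21.3, 25.4 and 24.5 RPKM, HHEX, needed for liver budding, at 22.0, 22.3 and 23.1 RPKM, and FOXA3, an opener of liver chromatin, at 22.9, 15.2 and 22.9 RPKM. HNF4A exceeded its relative HNF4G in each library, by 2.66 ± 0.04 on the log2 scale. CEBPA, a factor of mature hepatocytes, was listed at 0 exon reads in all 3 controls; whether its reads were left out of the exon counts was not tested.

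Of 48 nuclear receptors, 28 (58.3%) were expressed, beside 47.0% of all protein-coding genes. NR2F6, an orphan receptor, stood at 15.9, 18.8 and 18.6 RPKM, and NR1H4, the bile acid receptor FXR, at 17.3, 12.4 and 17.0 RPKM. NR5A1, best known from steroid-making glands, stood at 13.7, 15.3 and 16.7 RPKM, the fourth highest of the list. ESR1, ESRRG, NR0B1, PGR, RORB, RXRG and VDR were listed at 0. Of the sensors of foreign chemicals and their partners, 10 of 12 were expressed. HSP90AA1, the chaperone that holds the dioxin receptor AHR, stood at 326, 437 and 331 RPKM, the antioxidant factor NFE2L2 (NRF2) at 28.4, 32.7 and 31.2 RPKM and its repressor KEAP1 at 30.1, 25.5 and 28.5 RPKM. NR1I2 (PXR) stood at 1.14, 2.08 and 1.27 RPKM and NR1I3 (CAR) at 0.236, 0.181 and 0.444 RPKM. Both drug receptors were named after their values were seen.

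Drug-oxidising enzymes had the lowest share of expressed members of the 30 pathway lists. Of 33 genes 11 (33.3%) were expressed, under the 47.0% of all protein-coding genes, and 12 (36.4%) had no exon reads, above the 28.2% of all. The highest were partners and not P450 enzymes: POR, the reductase that feeds all of them electrons, stood at 34.2, 42.2 and 38.9 RPKM, and CYB5A, cytochrome b5, at 10.9, 8.66 and 10.0 RPKM. Of the P450 genes in this list CYP2W1, a form known from tumours and fetal gut, had the highest mean, with 6.02, 6.26 and 7.32 RPKM, although CYP3A7 and CYP3A5 exceeded it in control 1. No P450 gene of the list reached a mean of 10 RPKM. In the CYP3A cluster on chromosome 7, CYP3A7, the main form of fetal liver, stood at 9.70, 2.71 and 5.12 RPKM, CYP3A5 at 7.03, 2.64 and 4.03 RPKM and CYP3A4, the main form of adult liver, at 0.594, 0.320 and 0.0784 RPKM. CYP3A7 exceeded CYP3A4 in each library, with a CYP3A4 minus CYP3A7 difference of -2.82 ± 0.74 on the log2 scale. CYP3A5 and CYP3A7 were both highest in control 1 and lowest in control 2. CYP2C18 and CYP2C19 were listed at 0, as were CYP1A2, CYP2A6 and CYP2B6. Median spread was wide in this list, with a coefficient of variation of 37.5% among its 11 expressed members, where counting error alone gives a median of 10.8%. All expressed features had medians of 10.4% and 7.60%.

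The conjugation list, which also holds the ester hydrolases CES1 and CES2, had 21 of 41 genes expressed (51.2%), near the 47.0% of all protein-coding genes. CES1, a liver ester hydrolase, led with 239.6, 256 and 236 RPKM, and SULT2A1, which sulfates steroids and bile acids, followed with 129, 159 and 139.8 RPKM. Among the UGT2B glucuronyl transferases on chromosome 4, UGT2B10 stood at 38.7, 59.1 and 49.6 RPKM, UGT2B7 at 25.8, 20.0 and 22.9 RPKM and UGT2B4 at 20.8, 12.5 and 13.7 RPKM. UGT2B10 was the highest of the 3 in each library, while UGT2B15 and UGT2B17 had means of 0.150 ± 0.0381 and 0.103 ± 0.0132 RPKM. UGT1A1, UGT1A3, UGT1A9, GSTP1, NAT2 and NNMT were listed at 0, and the UGT1A genes share exons, so that their reads may not be unique. GSTA1, the alpha-class glutathione transferase of hepatocytes, stood at 8.52, 11.7 and 9.36 RPKM, against 0 for GSTP1, the form of most other epithelia. Of the hydrolases and cholinesterases that act on organophosphates, 9 of 22 (40.9%) were expressed, beside 47.0% of all protein-coding genes. In that list 31.8% had no exon reads, near the 28.2% of all, and it shares ester hydrolases such as CES2 with the conjugation list. PON2 stood at 34.3, 41.3 and 39.7 RPKM, and BCHE, the cholinesterase of plasma, was listed at 0.

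Uptake transporters of hepatocytes were expressed in 11 of 18 cases (61.1%) and export pumps in 12 of 15 (80.0%), beside 47.0% of all protein-coding genes. Uptake was led by SLC7A2, a carrier of basic amino acids, with 26.0, 27.8 and 29.3 RPKM, and SLC13A5, a citrate carrier, with 27.2, 23.6 and 29.6 RPKM. The organic anion carriers SLCO1B1 and SLCO1A2 were listed at 0, and SLC10A1, the bile salt carrier and named after its value was seen, stood at 0, 0.0974 and 0 RPKM. Export was led by ABCC2, the canalicular conjugate pump MRP2, with 129.8, 154 and 133 RPKM, followed by ABCB1, the drug pump P-glycoprotein, with 32.0, 28.1 and 31.5 RPKM. ABCB11, the bile salt pump, was listed at 0, against floors of 0.0568, 0.116 and 0.142 RPKM. The bile acid synthesis list had 12 of 21 expressed (57.1%), beside the same 47.0%. It was led by KLB, the co-receptor for FGF19 (66.4, 36.4 and 50.9 RPKM), and CYP27A1 of the acidic route (34.1, 47.1 and 41.2 RPKM). CYP8B1 was listed at 0, and CYP7A1, the rate-limiting enzyme of the classic route and named after its value was seen, stood at 0.331, 0.609 and 0.414 RPKM.

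In 27 pairs of related genes, a form typical of adult liver or of an adult state was set against a form typical of other or growing tissue. The second form was higher in all 3 controls in 19 pairs, the first in 7, and the pair FBP1 and FBP2 was mixed because FBP1, the liver fructose-bisphosphatase, stood at 0.0585, 0 and 0.293 RPKM and FBP2 at 0. The first form had 0 exon reads in 6 pairs and the second in 3. The widest gap was that of IGF1, listed at 0, and IGF2, at 558, 776 and 856 RPKM. No fold is given against a gene at 0, and log2 differences there depend on the 0.5 added.

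Of the glycolysis list 17 of 23 were expressed. HK2, the hexokinase of muscle and tumours, stood at 71.6, 106 and 72.3 RPKM, and ALDOA, an aldolase, at 379, 358 and 359 RPKM. PKLR, the liver pyruvate kinase, stood at 2.27, 2.52 and 1.87 RPKM and PKM at 157, 148 and 157 RPKM, a log2 difference of -5.84 ± 0.22. The 3 libraries lay close together and did not overlap between these 2 genes. PFKL and PYGL went the other way, since the liver phosphofructokinase exceeded PFKP by 2.83 ± 0.09 and the liver glycogen phosphorylase exceeded PYGB by 0.66 ± 0.09. LDHB was listed at 0 and LDHA stood at 515, 499.6 and 530 RPKM. SLC2A2, the glucose carrier of hepatocytes, stood at 1.86, 4.03 and 2.79 RPKM, against 81.4, 80.7 and 83.9 RPKM for SLC2A1, the carrier of most cells.

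Of the gluconeogenesis and glycogen list 15 of 21 were expressed. PCK1, the cytosolic enzyme that opens glucose synthesis, stood at 9.94, 15.3 and 11.6 RPKM and its mitochondrial relative PCK2 at 12.3, 18.5 and 16.6 RPKM, the closest pair that kept its order in all 3 libraries, with a difference of -0.36 ± 0.13. G6PC, which releases glucose, stood at 3.52, 9.56 and 6.75 RPKM and the widely expressed G6PC3 at 8.40, 10.1 and 13.6 RPKM. Their difference was -0.73 ± 0.57, and in control 2 both genes were near 10 RPKM. GYS2, the liver glycogen synthase, stood at 0.0311, 0 and 0 RPKM and GYS1 at 6.13, 5.22 and 6.74 RPKM.

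**Figure D3:**
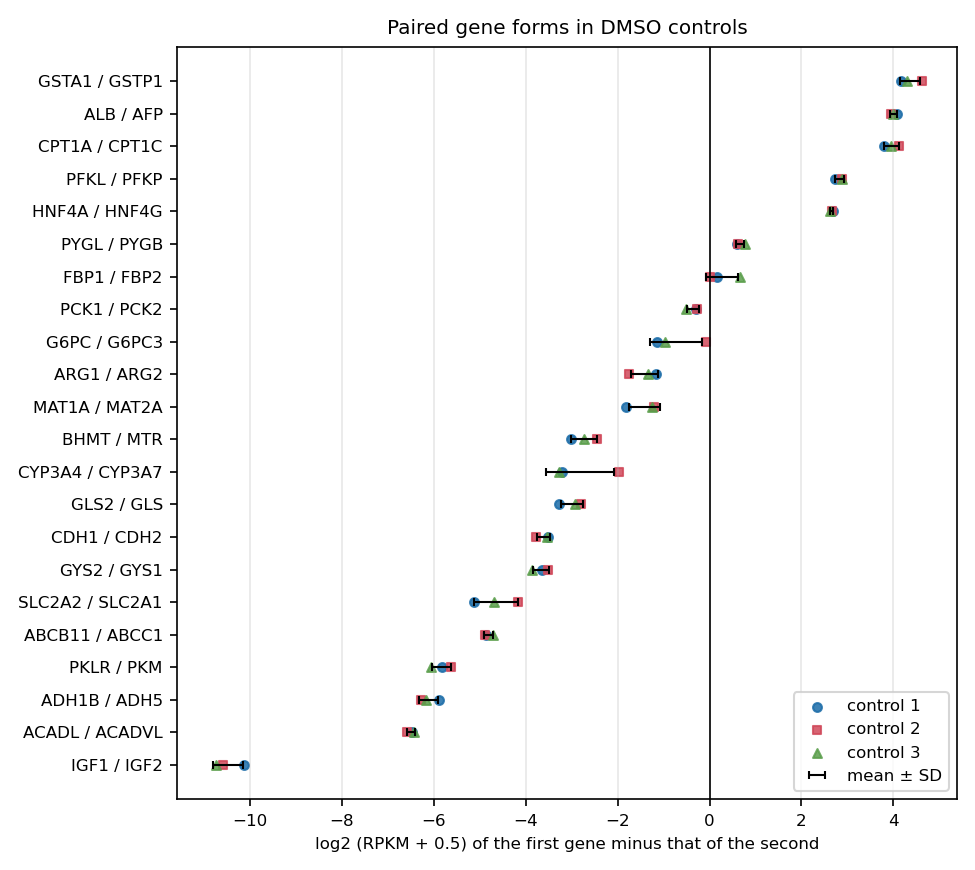
Difference of log2(RPKM + 0.5) between the 2 genes of 22 of the 27 pairs in the 3 DMSO controls, the first gene minus the second, with mean ± SD bars; points left of 0 mean that the second gene was higher. IGF1 and IGF2 lay at -10.49 ± 0.32 and GSTA1 and GSTP1 at 4.36 ± 0.23, the 2 ends of the range.

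The urea cycle list had 11 of 15 expressed, led by GLUD1, which releases ammonia from glutamate (90.8, 115 and 109.6 RPKM), and GLUL, which fixes it (77.7, 66.1 and 73.9 RPKM). Without members that overlap another feature with reads, 5 in place of 11 were left. ARG1, the liver arginase, stood at 14.4, 8.22 and 9.08 RPKM and ARG2 at 32.9, 28.7 and 23.9 RPKM, a difference of -1.42 ± 0.30. CPS1, which starts the cycle, stood at 2.20, 2.60 and 2.88 RPKM and OTC, its next enzyme, at 0.123, 0 and 0 RPKM; both were named after their values were seen. Of the amino acid catabolism list 25 of 42 (59.5%) were expressed, beside 47.0% of all protein-coding genes. HPD and HGD of tyrosine breakdown stood at 56.1, 77.0 and 70.7 RPKM and 52.4, 56.7 and 54.9 RPKM. TDO2, IDO1, IDO2, KMO and ACMSD of tryptophan breakdown were listed at 0, as were SDS and AGXT2. MAT1A, the methionine adenosyltransferase of adult liver, stood at 11.3, 18.8 and 16.2 RPKM and MAT2A at 40.8, 44.0 and 39.3 RPKM.

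Lipid synthesis was among the most complete lists. Cholesterol synthesis had 20 of 22 expressed, with SQLE at 42.3, 46.3 and 45.3 RPKM and FDFT1, which makes squalene, at 37.9, 37.6 and 43.3 RPKM. INSIG1, which holds back the pathway, was listed at 0, and whether its reads were left out of the exon counts was not tested. Fatty acid synthesis and storage had 21 of 24 expressed, with the desaturase SCD at 203, 178 and 204 RPKM, the lipid droplet coat PLIN2 at 111, 134 and 121 RPKM and FASN at 45.6, 42.4 and 49.1 RPKM. Fatty acid oxidation had 20 of 26 expressed, led by FABP1, the fatty acid carrier of liver cytosol (269.7, 298 and 326 RPKM), and HADHA (89.4, 88.2 and 95.3 RPKM).

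Antioxidant and metal-binding genes were expressed in 30 of 34 cases, 88.2%. After FTL came the ferritin heavy chain FTH1 (565, 678 and 611 RPKM), the peroxidase PRDX1 (316, 276 and 299 RPKM) and the quinone reductase NQO1 (238, 238 and 232 RPKM). NQO1 differed by under 3% between the lowest and highest library, whereas FTL and FTH1 were both highest in control 2. MT1H was listed at 0.

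Genes of fetal liver and liver tumours were expressed in 17 of 26 cases. GPC3, a cell-surface proteoglycan used as a marker of hepatocellular carcinoma, was read at 1087, 1133 and 1129 RPKM with a coefficient of variation of 2.27%. IGF2 stood at 558, 776 and 856 RPKM, lowest in control 1, while H19, the noncoding gene beside it, stood at 0.208, 0.142 and 0 RPKM. PEG10, an imprinted gene derived from a retroelement, stood at 128, 276 and 202 RPKM, again lowest in control 1. HBG1, HBG2 and HBZ, the fetal and embryonic globins, were listed at 0, and the first pair are near-identical copies.

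Of the list of Wnt pathway genes and targets, 18 of 23 (78.3%) were expressed, beside 47.0% of all protein-coding genes. HepG2 carries an activating CTNNB1 change in this pathway, and its effect was not tested. NOTUM, a secreted Wnt inhibitor, stood at 64.0, 74.7 and 80.0 RPKM, GLUL at 77.7, 66.1 and 73.9 RPKM, SP5 at 72.5, 74.2 and 70.9 RPKM and NKD1 at 67.3, 71.3 and 68.1 RPKM. Among growth factors and their receptors, 23 of 31 were expressed, led by IGF2, by IGFBP1, which binds it (172, 532 and 322 RPKM), and by TGFBR2 (83.0, 94.5 and 87.9 RPKM) and IGF2R (61.5, 60.2 and 62.4 RPKM). HGF, IGF1, FGF21 and PDGFRA were listed at 0. Cell cycle genes were expressed in 35 of 41 cases, with PCNA, the clamp of DNA replication, at 78.6, 107 and 90.3 RPKM, MCM3 at 60.1, 57.6 and 60.9 RPKM, MYC at 50.3, 59.8 and 53.6 RPKM and TOP2A at 44.3, 51.4 and 48.7 RPKM. PCNA, MYC and TOP2A were each lowest in control 1, as were 4439 of all 9263 expressed features. CDKN2B and MYCN were listed at 0.

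Of the junction and keratin list, which also holds FN1, VIM and TWIST1, 16 of 29 (55.2%) were expressed, beside 47.0% of all protein-coding genes. FN1 led, followed by the desmosome plaque protein DSP (152, 179 and 161 RPKM) and the hepatocyte keratins KRT8 (142, 145 and 156 RPKM) and KRT18 (114, 107 and 111 RPKM). CDH2 exceeded CDH1, the cadherin of most epithelia, with a CDH1 minus CDH2 difference of -3.60 ± 0.14, and VIM, the filament of mesenchymal cells, was listed at 0 together with CLDN2, CLDN7, GJA1 and TWIST1. Innate immune genes were expressed in 15 of 34 cases, 44.1%, near the 47.0% of all protein-coding genes. HLA-C stood at 62.0, 54.3 and 59.2 RPKM and STAT3, the signal carrier of interleukin-6, at 36.8, 34.2 and 35.9 RPKM. TLR5, TLR6, IRF7, IFNB1, IFNL1, HLA-DRA, IL6 and TNF were listed at 0. Housekeeping genes were expressed in 25 of 27 cases.

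Markers of other cell types were mostly at or near 0. All 9 endothelial markers lay under 1 RPKM in each control, with sums over the list of 0.798, 0.641 and 0.906 RPKM, and KDR, TEK, STAB2 and CLEC4G were at 0. Sums for erythroid markers were 0.0185, 0.233 and 0 RPKM and for neural markers 0.335, 0.727 and 0.376 RPKM, and no member was expressed. Of 12 leukocyte markers only LYZ (lysozyme) was expressed, at 1549, 1377 and 1652 RPKM, out of list sums of 1550.5, 1379 and 1653 RPKM, while PTPRC, MARCO, CD3E, MS4A1 and ITGAM were at 0. Leukocyte genes outside these 12 were not counted, and some of them were expressed. Of 10 stellate and fibroblast markers ACTA2 (5.74, 6.46 and 6.87 RPKM) and PDGFRB (2.10, 1.98 and 2.23 RPKM) were expressed, and COL1A2, DCN, LUM and DES were at 0. No muscle or kidney marker was expressed, and all 7 pancreatic markers were at 0. Of 8 intestinal markers VIL1 was expressed, at 60.6, 55.3 and 56.4 RPKM.

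Of bile duct genes 4 of 8 (50.0%) were expressed, near the 47.0% of all protein-coding genes, and 37.5% had no exon reads, against 28.2% of all. SPP1 (osteopontin), which tumours also secrete, stood at 644, 637 and 933 RPKM and was highest in control 3. KRT19 stood at 22.2, 34.2 and 34.7 RPKM and SOX9 at 9.45, 7.25 and 8.33 RPKM. CFTR and MUC1 were at 0, and KRT7 stood at 0.0238, 0 and 0 RPKM. KRT19 and SOX9 are also in the fetal liver list.

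Among long noncoding genes matched by name and with annotated exons, ZFAS1, a host of small nucleolar RNAs, was highest, with 82.2, 78.2 and 72.2 RPKM. Genes without annotated exons have no place in this order, among them LINC00657, with a mean of 3076 gene reads per control. LINC00261, a neighbour of FOXA2, stood at 34.3, 39.4 and 36.3 RPKM, MALAT1, a nuclear RNA of speckles, at 41.4, 33.1 and 28.0 RPKM, DANCR at 36.2, 29.9 and 33.0 RPKM and NEAT1, the RNA of paraspeckles, at 29.2, 33.8 and 25.1 RPKM. The snoRNA hosts SNHG5, SNHG8, SNHG6 and GAS5, and FGD5-AS1, had means between 17.3 and 25.2 RPKM. RPKM leaves out intron reads, and 85.6, 85.9 and 86.2% of the gene reads of MALAT1 and 62.2, 57.3 and 57.7% of those of NEAT1 were counted as intron reads. RNA was selected by its poly(A) tail, which affects which noncoding RNAs are seen.

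Reads in introns made up 8.60, 8.49 and 7.73% of gene reads in controls 1, 2 and 3, 8.28% ± 0.478 (SD, n = 3), with control 3 lowest. Part of this was annotation: the mitochondrial ribosomal RNAs have no annotated exon in the files, and they held 19.6, 18.7 and 23.9% of all intron reads. Without the mitochondrial genome the intron share was 7.24, 7.22 and 6.14%. Among 1270 protein-coding nuclear genes with at least 500 gene reads and 100 exon reads in each control, the median intron share was 3.37, 3.45 and 2.66%, 758 genes (59.7%) were under 5% in all 3, and 6 reached 50% in all 3. MCEE, of propionate breakdown, had intron shares of 78.6, 78.7 and 78.3%, FTCD, of histidine breakdown, 72.3, 70.7 and 68.3%, BDH1, of ketone metabolism, 65.4, 67.6 and 63.5%, and NR1H4 69.8, 63.4 and 62.0%. RAB17, a trafficking GTPase, had 63.5, 63.4 and 62.9% and FGL1 56.8, 61.8 and 60.4%. In these 6 genes the libraries lay within 8 percentage points of one another. HGD, BCL6, PSMB7 and ANKRD10 followed, with shares from 38.2 to 54.0%. Whether these reads come from unspliced RNA or from exons that the annotation lacks was not tested.

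The 3 cultures were close but not interchangeable. edgeR put the common biological coefficient of variation, the spread beyond counting error, at 11.4% over 11150 genes. Pearson's r of log2(RPKM + 0.5) across the 9263 expressed features was 0.981 for controls 1 and 2, 0.989 for 1 and 3, and 0.987 for 2 and 3, and genes are not independent replicates. Between controls 1 and 2, 99 expressed features differed by 2-fold or more, against 17 for controls 1 and 3 and 40 for 2 and 3. Without control 3 the common coefficient was 14.5%, without control 1 it was 8.99% and without control 2 it was 8.85%. Among 4406 protein-coding genes with a mean of at least 5 RPKM and 100 exon reads in each library, control 3 was the middle library in 47.5%. It was the middle library in 49 of the 50 of them with the largest spread, of which 27 were highest in control 1 and 22 in control 2. Of the 3 pairs of cultures, controls 1 and 2 differed in the most features.

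Spread fell with level only in part. At 1 to 3 RPKM the median coefficient of variation was 14.6%, next to 13.7% from counting error alone. At 300 RPKM or more it was 7.76%, next to 1.01%. A coefficient from 3 values has a median below the true one, so each pair of medians is a description and not a split of the spread into parts.

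**Figure D4:**
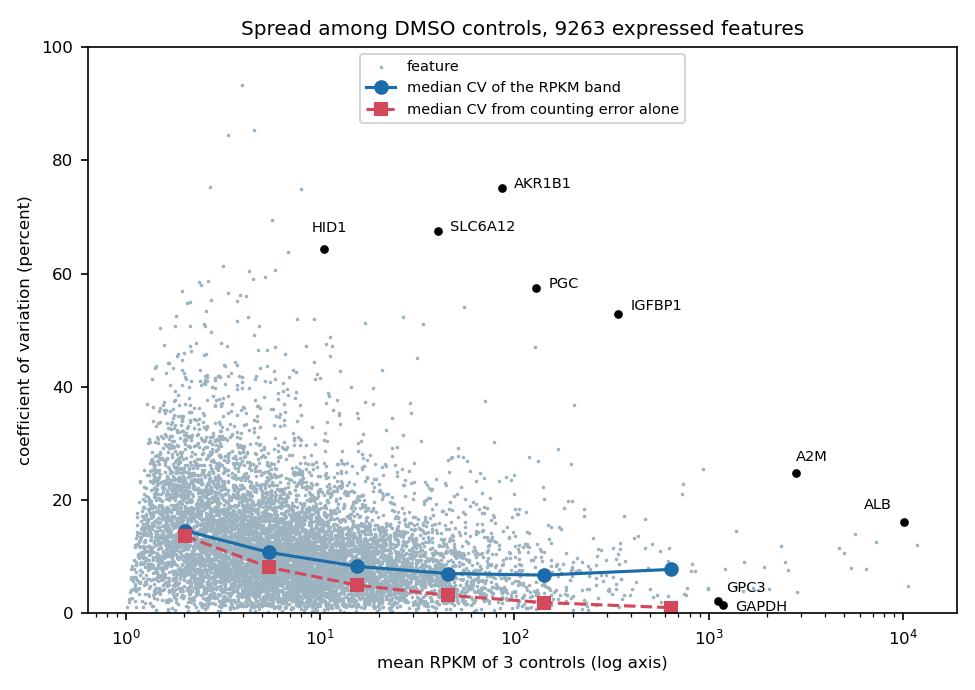
Coefficient of variation of RPKM among the 3 DMSO controls (percent) against mean RPKM (log axis) for 9263 expressed features, with the median of each RPKM band (circles) and the median expected from counting error alone (squares), both at the median RPKM of the band. AKR1B1 (75.2%) and IGFBP1 (52.9%) lay far above the band medians, and GAPDH (1.56%) and GPC3 (2.27%) below.

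The genes of largest spread were chosen by that spread, so their values are a description. AKR1B1, the aldose reductase that makes sorbitol, stood at 157, 30.4 and 70.7 RPKM. SLC6A12, a betaine carrier, stood at 68.7, 14.5 and 37.5 RPKM, and HID1 at 17.0, 3.54 and 10.8 RPKM. PGC, the digestive protease precursor progastricsin, stood at 203, 54.5 and 130.4 RPKM, the amino acid carrier SLC6A14 at 37.0, 10.8 and 32.5 RPKM and SLC4A11, a membrane transporter, at 25.6, 8.12 and 17.4 RPKM. HOXD1, a homeobox factor, stood at 49.2, 15.1 and 37.4 RPKM and HPS4, of lysosome-related organelles, at 14.7, 5.37 and 7.80 RPKM. These 8 genes were highest in control 1 and lowest in control 2, with control 3 between. IGFBP1 stood at 172, 532 and 322 RPKM and its chromosome 7 neighbour IGFBP3 at 6.29, 17.1 and 10.2 RPKM, the reverse order. At the other end, RAB12, CTDSP2, TBC1D22B, PRKCSH and STK38 had coefficients of variation from 0.0168 to 0.266%, below the 3.00 to 7.95% that counting error gives, so they are the lower tail of a sample of 3 and not shown to be steadier than others.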

How the data were processed

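RNA of HepG2 cells was isolated with TRIzol and RNeasy columns, and poly(A)-selected stranded libraries were sequenced as 50-base read pairs on a HiSeq 1500, per the labels' protocols. The authors aligned reads to hg19 and counted them with CLC Genomics Workbench, as the design text of the series states, and no source here gives the version or says if counting used strand. The deposited files of the 3 controls give whole-number read counts per feature (gene, exon, intron and exon-exon reads), RPKM values and a signal that the authors quantile-normalised, per the file headers and design text. The 6 treated libraries were not analysed here. From exon reads, exon lengths and mapped reads the deposited RPKM was recomputed to within 1.183e-07. Of 57773 features, 20986 have an exon length of 0, so their deposited RPKM is 0 whatever their reads. Positions are hg19, with 1 added to the start. Biotypes came from GENCODE v44 on GRCh37, which matched 33641 features by name; promoters came from RefSeq on GRCh38.p14.

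The counts were described with Python 3.11.15 and with edgeR 4.0.16 in R 4.3.3 (filterByExpr, TMM, intercept only); the estimator was tested on simulated data. There is 1 group and no comparison between groups, so no test between groups was made; a chi-square served only as a check for repeated libraries. Named genes are the 25 of highest RPKM, the 10 of largest read share, the 10 highest long noncoding genes, up to 4 members of each list by RPKM, members at 0, all pairs, expressed markers, and the extremes of spread and intron share; others are marked as chosen after their values were seen, and some that the rule names are not reported here. The members and lists were chosen with earlier results of these data known. Alternatives covered the RPKM minimum, TPM, read class, depth, pseudocount, scaling and leaving out each control.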

Additional observations from a re-analysis of the deposited data

Results flagged for a closer look

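Features that the deposited RPKM leaves at 0 still held reads: 1350 features without annotated exons had gene reads. Given here are the 5 features of most gene reads among all those with no exon read in any control and the 5 of most among nuclear ones, 8 in all. MT-RNR2, the large ribosomal RNA of mitochondria, had 146704, 68305 and 65858 gene reads in controls 1, 2 and 3 (mean 93622), and it was among the 10 leading features by reads. MT-RNR1, the small one, had 22869, 9975 and 8552 gene reads in controls 1, 2 and 3 (mean 13799). LINC00657, a long noncoding RNA also called NORAD that binds PUMILIO proteins, had 4570, 2651 and 2007 gene reads in controls 1, 2 and 3 (mean 3076). MT-TP, the mitochondrial proline transfer RNA, had 1078, 481 and 426 gene reads in controls 1, 2 and 3 (mean 662). The remaining features, AC005077.14, RP11-401P9.4, RP11-556K13.1 and CASC7, had means of 453, 375, 326 and 311 gene reads. Of the 8, all but RP11-556K13.1 have no annotated exon in the files. Reads were higher in control 1 for each of the 8, as its depth was.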

How the results depend on the processing

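With a minimum of 5 RPKM instead of 1, 5014 features were expressed in place of 9263; the other settings tried (0.5 RPKM, any 1 library, TPM, thinning to the shallowest library, 10 exon reads) gave 9151 to 11133. The share of the 10 leading features was 14.9% without the mitochondrial genome in place of 16.5%. The intron share of 8.28% was 6.87% without the mitochondrial genome, 6.34% without features that had no exon reads, and 5.93% as a median over genes with 100 reads per library. Leaving out each control in turn gave 9369 to 9413 expressed features, 20620 to 21600 features without exon reads, shares of 16.0 to 17.4% for the 10 leading features, intron shares of 8.11 to 8.55%, a common coefficient of variation of 8.85 to 14.5%, 515 to 519 list members expressed and 19 pairs with the second form higher. The median coefficient of variation was 10.4% for RPKM and 9.46% for the authors' quantile-normalised signal. No pair changed direction among 162 values under the alternatives, but none could. The constant added before the log cannot change which gene of a pair is higher, and unique exon reads equal total ones. A pair with the same order in all 3 controls keeps it when a control is left out, so the 19 pairs above were fixed too. Of 287 list counts, 269 stayed within 1.5 times. At 5 RPKM the lists that fell further were P450 genes (11 to 3), uptake carriers (11 to 5), export pumps (12 to 7), nuclear receptors (28 to 15), bile acid synthesis (12 to 7), fatty acid synthesis (21 to 13), organophosphate hydrolysis (9 to 5) and stellate markers (2 to 1). Leukocyte markers went from 1 to 3 with any 1 library and intestinal markers from 1 to 2 at 0.5 RPKM. Chosen after seeing the data, protein-coding features alone gave 8425 expressed, and leaving out members that overlap another feature with reads gave 387 of the 512 list members; nuclear receptors then fell from 28 to 18, the urea cycle from 11 to 5, glycolysis from 17 to 10, fatty acid oxidation from 20 to 13, mitochondrial protein genes from 13 to 8, stellate markers from 2 to 1, and leukocyte and intestinal markers from 1 to 0. No paired analysis was possible because only 1 group was described and no groups were compared. Depth limits genes of 1 to 3 RPKM, where the median error from counting alone was 13.7%.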
